A study of Mus musculus with 4 samples.

Results

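The replication-dependent histone genes encode the linker histone H1 and the core histones H2A, H2B, H3 and H4 that package newly copied DNA. Members were taken by name, as genes whose current or former symbol places them in the Hist1h, Hist2h, Hist3h or Hist4h clusters, or in the newer H2ac, H2bc, H3c and H4c series or H1f1 to H1f6. Of 70 such genes in the RefSeq gene table, 48 had a probe on the array under their RefSeq accession, among 32585 genes or unnamed identifiers with a probe. These 48 were 6 genes for H1, 14 for H2A, 11 for H2B, 8 for H3 and 9 for H4. The other 22 had no probe by accession and have no value here.

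The arrays held RNA of male mice aged 20 weeks, either IP6K2-KO mice, which lack the sixth exon of the kinase gene Ip6k2, or their WT littermates. Both genotypes had the normal diet CE-2, then the purified diet (iVid-neo) over 1 week, and went without food for the last 48 h. Spinal cord and duodenum were hybridized, with 1 array for each genotype and tissue and therefore no replicates, so values and differences are given without a test. Ip6k2 itself has a single probe (NM_029634), and the files do not tell if it lies in the deleted exon. Its background-subtracted signal was 452 in WT and 1320 under the KO label in the spinal cord, and 139 and 572 in the duodenum. Scaled to the array, the KO label was 1.45 higher in the spinal cord and the duodenum difference was −0.21 on the log2 scale, so in the spinal cord the probe ran against the labels. Genotypes are named as labelled.

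Signals are background-subtracted intensities and are listed in the order WT spinal cord, spinal cord labelled KO, WT duodenum and duodenum labelled KO. For comparisons, the log2 of each signal was set against the 75th percentile of its array, which was 905, 971, 68.0 and 323, and the result is called the normalized value. Precision was limited by the number of arrays. Of 39429 probes, 76.7%, 77.3%, 51.6% and 66.3% were well above background, so the 2 duodenum arrays were dimmer and differed from each other in brightness. Markers of both tissues were checked. The astrocyte gene Gfap had signals of 17196, 15403, 1.33 and 3.61 and the oligodendrocyte gene Mobp of 37156, 49358, 1.105 and 1.117. Both, and the neurofilament gene Nefm, were well above background in the spinal cord and in neither duodenum array. Not all spinal cord markers behaved so. Mbp, Snap25 and Aqp4 were well above background on all 4 arrays, and the normalized value of Mbp was 0.17 higher in the duodenum in WT and 0.70 under the KO label. For the duodenal epithelium, the sums over 10 markers were 1121, 1135, 174957 and 360251, led in the duodenum by the fatty acid binding protein gene Fabp2, and Fabp1, Apoa1, Apoa4, Cdx1 and Cdx2 were not well above background in the spinal cord. The crypt stem cell gene Lgr5 ran the other way, with signals of 1036, 1058, 13.9 and 79.8, and made up most of the spinal cord sums. Genes of pancreatic acinar cells were measured in the duodenum arrays too. All 11 of that list were well above background there, and their signals summed to 448, 563, 1277164 and 1839052. The elastase gene Cela3b had the brightest probe of the list in the duodenum arrays, while Cela2a, Cela3b and Prss2 were not well above background in either spinal cord array.

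Histone mRNAs of this kind accumulate during S phase, when DNA synthesis creates a demand for histones, and are degraded when it ends. Most lack introns and end in a conserved stem-loop instead of a poly(A) tail. The stem-loop binding protein, the U7 small nuclear ribonucleoprotein and a cleavage complex shared with ordinary mRNAs form that end. In the intestine, dividing cells lie in the crypts and the villus epithelium is postmitotic, whereas most cells of the adult spinal cord do not divide. Several cluster genes can also yield polyadenylated transcripts, mostly in cells that have left the cycle. The labelling kit primes from poly(A) tails, so the signal need not follow the stem-loop mRNA, and the share of tailed transcripts was not measured. Cluster genes of a type are near-identical in their coding sequence, and a probe may bind transcripts of several of them, so values of single members are uncertain in that respect. The tissues are mixtures, and fewer dividing cells and less histone mRNA per cell cannot be told apart.

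Histone gene values were higher in the duodenum than in the spinal cord relative to other genes. In WT mice the median member was 5.47 higher on the normalized log2 scale. At least 2-fold higher were 36 of 45 members measured, against 30.2% of all genes, and 2 were at least 2-fold lower, against 23.1%. A member counted as measured where it was well above background on at least 1 of both arrays. Where only 1 array measured it, the other array entered at its detection floor (the dimmest probe still well above background) or at the value of the probe if that was higher, which gives a bound ("at least N-fold"), and a member whose bound was under 1-fold entered at 0. The median gene, treated alike, was at 0. When spiked-in control RNAs set the scale, the median gene was at −4.33 and the median member at 0.43, so 15 of 45 members were at least 2-fold higher, against 3.43% of all genes, and 18 lower, against 92.3%, yet relative to the median gene the members' median was 4.76. With normexp background correction, which models the background instead of subtracting it, that median was 2.17, and 3.42 once local backgrounds flagged as outliers had been replaced.

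On the arrays labelled KO, 36 of 47 members were at least 2-fold higher in the duodenum, against 30.3% of all genes, and 3 were at least 2-fold lower, against 25.4%, with a median of 2.32. Scaled on the spiked-in controls, the median gene was at −1.64 and the median member at 0.46, with 8 of 47 members at least 2-fold higher, against 9.56% of all genes, and 11 lower, against 64.8%. Under normexp the members' median relative to the median gene was 1.42. Of all genes past 2-fold, 56.7% in WT and 54.4% under the KO label were higher in the duodenum. Those shares were 3.58% and 12.9% with spiked-in scaling and 70.1% and 69.5% with normexp and replaced backgrounds, and 41.3% in WT with the log2 values that the authors deposited.

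The 2 duodenum arrays differed in these genes. On the array labelled KO, 33 of 46 members were at least 2-fold lower than on the WT array, against 11.9% of all genes, and 0 were at least 2-fold higher, against 7.2%. The members' median difference was −2.74 when the median gene was at 0. Before scaling, the signals of all 48 probes summed to 95239.5, 143898, 432563 and 296847. The total on the duodenum array labelled KO was thus below that on the WT array, while the typical gene was brighter there. By type, only the sums of H2A (339310 in WT, 232333 labelled KO) and H4 (78458 and 41593) were lower there. Those of H1 (7382 and 8303), H2B (2355 and 7490) and H3 (5058 and 7127) were higher. The totals over all 48 probes were 0.122%, 0.178%, 1.84% and 0.481% of the summed signal of all genes. The direction therefore belongs to values relative to other genes: scaled on the spiked-in controls, the median gene was at 2.78 and the median member at 0.27, and then 17 of 46 members were at least 2-fold higher, against 96.2% of all genes, and 0 lower. Relative to the median gene, the members' median was −2.52 with that scaling and −1.81 with normexp background correction, below 0 under each scaling tried. Of all genes past 2-fold in this comparison, 37.7% were higher on the array labelled KO. That share was 21.6% under normexp, 99.9% with spiked-in scaling and 63.6% in the deposited log2 table. Type by type, the sign of the median relative to the median gene was the same under each scaling in all 4 comparisons, except for H2B in the duodenum and H3 in the spinal cord.

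In the spinal cord the difference was smaller and had the opposite sign. At least 2-fold higher on the array labelled KO were 7 of 45 members, against 2.28% of all genes, and 0 were at least 2-fold lower, against 0.865%. The members' median was 0.35 and that of all genes −0.037. Under normexp 4 members were at least 2-fold higher and 15 at least 2-fold lower, when 0.341% of all genes were higher and 38.3% lower. The WT spinal cord array holds local backgrounds of up to 15708, and once the 481 flagged backgrounds of that array and those of the others were replaced by the median of their array, 4 members were higher and 0 lower. Scaled on the spiked-in controls, 4 were higher, against 1.75% of all genes, and 0 lower, and the median gene was at −0.20. The share of higher genes among all genes past 2-fold was 72.5%, 0.883% under normexp, 90.1% with replaced backgrounds and 55.7% with spiked-in scaling. Relative to the median gene, the members' median lay above 0 under each of these settings.

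**Figure D1:**
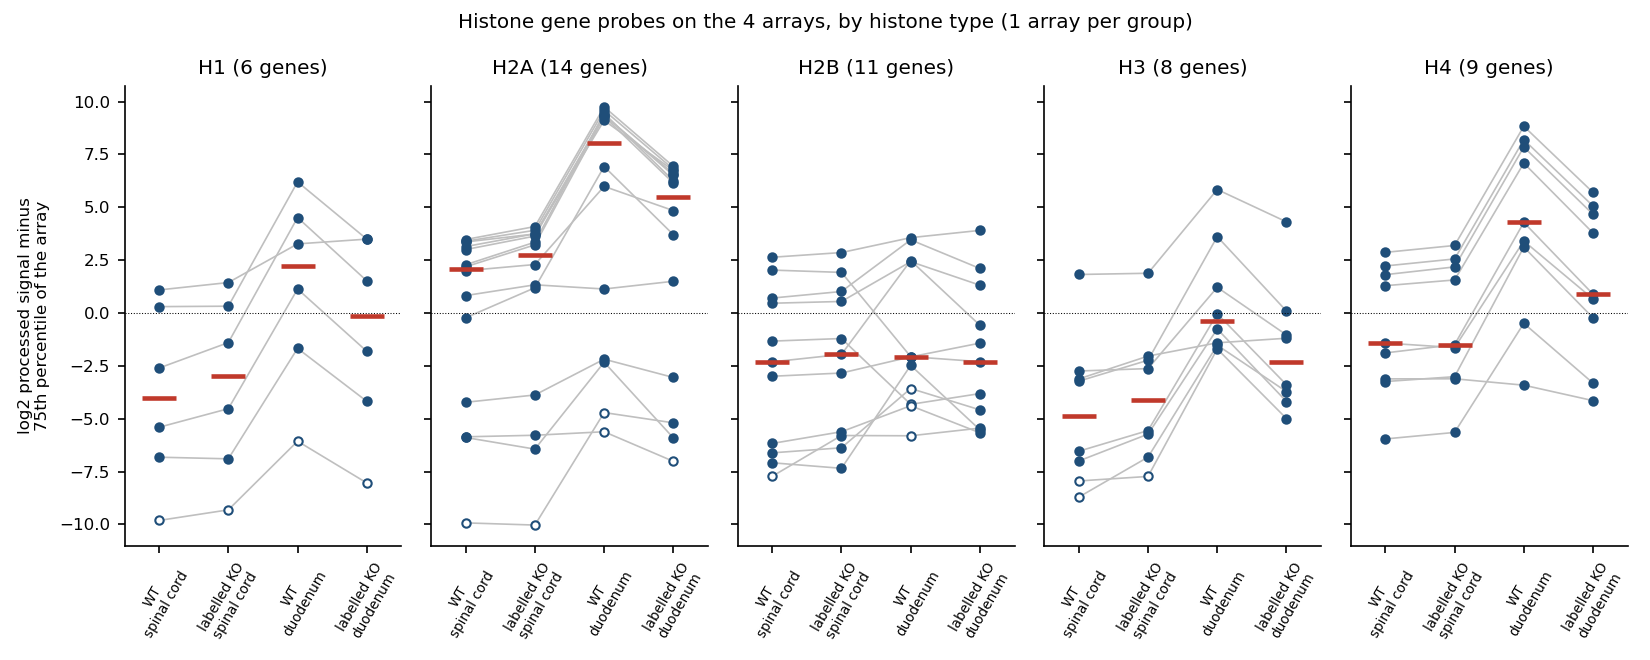
Normalized log2 value (log2 processed signal minus the 75th percentile of the array) of each of the 48 histone gene probes on the 4 arrays, by histone type. Each line is 1 gene, filled points are well above background, open points are not, and the red bar is the median of the type; in each type but H2B the median was higher on the WT duodenum array than on the other 3, an order that belongs to this scaling, since scaling on spiked-in controls moves the members' median difference between the duodenum arrays from −2.74 to 0.27.

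H1 binds the linker DNA between nucleosomes and compacts chromatin. Of its 6 genes, 5 were measured, and H1f3 was not well above background on any array. The signals of H1f4 (NM_015787) were 1115, 1214, 5002 and 3633. Its WT duodenum array was the brightest, and the normalized value fell by 2.71 from there to the array labelled KO, with a technical SD of 0.0669, which comes from the scatter of probes with 10 spots each. In the spinal cord the difference was 0.021, within its technical SD of 0.0562. This SD holds the scatter of spots and nothing of the differences between mice.

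H1f5 (NM_020034), a linker histone gene typical of dividing cells, had signals of 149, 368, 1553 and 926. The difference between the arrays labelled KO and WT was −2.99 in duodenum and 1.20 in spinal cord (0.16 under normexp), and WT duodenum exceeded WT spinal cord by 7.12. H1f2 (NM_015786) took another course. Its signals were 1927, 2636, 655 and 3634, and it is a linker histone gene known from cells that do not divide as well. The duodenum difference was 0.22, and it was 0.80 under normexp. H1f6, the linker histone gene known from the testis, differed by −2.50 in duodenum and −0.077 in spinal cord, at signals of 8.02, 8.16, 21.3 and 17.9, and the latter was −2.28 under normexp and −0.042 with flagged backgrounds replaced. H1f1, the remaining member, differed by −2.95 and 0.88, and its spinal cord difference was −1.75 under normexp and 0.29 with flagged backgrounds replaced.

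H2A pairs with H2B in dimers on the faces of the nucleosome. Of 14 H2A genes with a probe, 13 were measured in the duodenum, and 10 of them were at least 2-fold lower on the array labelled KO, against 11.9% of all genes. The median difference of the type was −2.78 in duodenum and 0.52 in spinal cord. H2ac12 (NM_175659) had signals of 10066, 16518, 58362 and 39419.8. For H2ac10 (NM_175661) they were 9524, 14611, 52143 and 35937. H2ac19 (NM_178212), on chromosome 3, gave 9293, 12944, 37513 and 34444. For these 3 genes the WT duodenum array was the brightest and the WT spinal cord array the dimmest. The normalized differences between the duodenum arrays were −2.81, −2.78 and −2.37 in the same order of genes, and with spiked-in controls H2ac12 was at 0.19, below the median gene at 2.78.

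The pair H2ac11 and H2ac22, both in the large cluster on chromosome 13, had similar values, but their probes may bind the same transcripts. H2ac11 (NM_178186) had signals of 4403, 9901, 47083 and 24744 and H2ac22 (NM_178184) of 4117, 9064, 42604 and 22858. Their duodenum differences were −3.17 and −3.15, and their spinal cord differences 1.07 and 1.04. H2ac4 (NM_175660), with signals of 774, 2222, 8276 and 4202, had the highest spinal cord difference among members well above background on both arrays, 1.42 against a technical SD of 0.0590, and a duodenum difference of −3.22. At the other end was H2ac21 (NM_178213), a dim probe with signals of 15.3, 11.2, 13.6 and 5.38. Its differences of −3.58 in duodenum and −0.55 in spinal cord were the lowest of the members measured on both arrays, with technical SDs of 0.295 and 0.214. The spinal cord value was −2.29 under normexp and −0.15 with replaced backgrounds. H2aw (NM_178218), the H2A gene of the small cluster on chromosome 11, was past 2-fold in neither genotype comparison. Its signals were 1603, 2446, 149 and 913, the duodenum difference was 0.36, and WT duodenum differed from WT spinal cord by 0.31. H2ac6 was well above background only in the spinal cord, and H2ac8 only on the duodenum array labelled KO, where its bound against WT was under 1-fold.

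H2B is the partner of H2A. Of its 11 genes, 4 were at least 2-fold lower on the duodenum array labelled KO (11.9% of all genes), and the median was 0. This share was the smallest of the 5 types, but H2bc6, H2bc8, H2bc22 and H2bc23 were not well above background in WT duodenum. They could not have been found lower. Of the 7 H2B genes that both arrays measured, 4 were lower, against 14.8% of all genes so measured. Their median relative to the median gene was −0.997. H2bc4 (NM_023422) had signals of 5627, 7043, 803 and 4839.8. It is 1 of the H2B genes known to give polyadenylated transcripts in differentiated cells. Before scaling it was brighter on the duodenum array labelled KO than on the WT array, as were H2bc14 and H2bc1. The normalized difference of H2bc4 was 0.34. H2bc14 (NM_178200) gave 1477, 1965, 748 and 1388 and differed by −1.35 in the duodenum. H2bc1 (NM_175663), an H2B gene known from the testis, gave 1247, 1418, 366 and 803 and differed by −1.11. Under normexp the differences of H2bc14 and H2bc1 were −0.84 and −0.55, within 2-fold.

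Further H2B genes spread widely. H2bc21 (NM_178214), also known to make a tailed transcript, had signals of 114, 136, 16.2 and 120.3 and a duodenum difference of 0.65, which was −0.36 under normexp, so its sign was not stable. H2bu2 (NM_030082), which lies with H2aw on chromosome 11, was brighter in the spinal cord, at 3694, 3676, 16.3 and 65.5, and the difference of WT duodenum from WT spinal cord was −4.09. H2bc6 (NM_178194) was not well above background in WT duodenum and was at least 6.30-fold lower there than in WT spinal cord, but this was −0.32 on the log2 scale under normexp and gave no fold with flagged backgrounds replaced. H2bc3, with signals of 6.68, 5.98, 12.2 and 7.01, differed by −3.05 in duodenum and −0.26 in spinal cord, the latter at −2.38 under normexp and −0.098 with replaced backgrounds. H2bc23 (NM_001097979) was well above background in the spinal cord only on the array labelled KO and was at least 3.65-fold higher there, but it gave no fold under normexp and a log2 difference of 0.15 with replaced backgrounds. H2bc8 and H2bc22 were not well above background in WT duodenum and gave no fold, and H2bc8 differed by −0.051 between duodenum and spinal cord on the arrays labelled KO, which was 1.11 under normexp. H2bc18 was the fourth H2B gene past 2-fold in the duodenum, at −3.06.

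H3 forms the core tetramer with H4 and carries many of the known histone tail modifications. Of 8 H3 genes, 7 were at least 2-fold lower on the duodenum array labelled KO, against 11.9% of all genes, with a median of −2.77, and 2 of 7 were at least 2-fold higher on the spinal cord array labelled KO, against 2.28% of all genes. H3c4 (NM_178204) had signals of 3198, 3572, 3892 and 6402. The duodenum array labelled KO was the brightest before scaling, and the normalized difference was −1.53, which was −0.91 under normexp. H3c14 (NM_178216) gave 97.0, 207, 831 and 344 and H3c3 (NM_175653) gave 135, 157, 158 and 157. Their duodenum differences were −3.52 and −2.25. H3c15 (NM_054045) lies in the same cluster on chromosome 3 as H3c14, and its signals were 104, 237, 25.6 and 141, with a duodenum difference of 0.22, which was −0.25 under normexp. In the spinal cord H3c14 and H3c15 differed by 0.99 and 1.08.

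The dimmer H3 genes had wide differences. H3c11 (NM_178207) gave 7.09, 18.3, 40.3 and 17.74 and H3c7 (NM_013548) gave 9.76, 20.6, 66.3 and 30.7, with duodenum differences of −3.43 and −3.36. Their spinal cord differences were 1.27 and 0.98, but under normexp, relative to the median gene, they were −1.78 and −1.70, and H3c14 was at −0.074 and H3c15 at 0.18. Once flagged local backgrounds were replaced, normexp gave 0.077, 0.078, 0.68 and 0.87 for H3c11, H3c7, H3c14 and H3c15, with the median gene at −0.048. Likewise, the median of the type relative to the median gene was −0.074 under normexp, 0.13 with replaced backgrounds and 1.01 in the main scaling. H3c8 was well above background in the spinal cord only on the array labelled KO, where it was at least 1.80-fold higher. That gave no fold under normexp and a log2 difference of 0.035 with replaced backgrounds. H3c1 was well above background on neither spinal cord array.

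H4 is the most conserved core histone, and its cluster genes encode the same protein. Of 9 H4 genes, 8 were at least 2-fold lower on the duodenum array labelled KO, against 11.9% of all genes, with a median of −3.13, and 0 were past 2-fold in the spinal cord. The signals of H4c12 (NM_178211) were 6602, 8879, 30952 and 16764. Those of H4c14 (NM_033596) were 4229, 5710.4, 19911 and 10759, and those of H4c4 (NM_175654) were 3179.5, 4398, 15661 and 8192. All 3 were brightest in WT duodenum and dimmest in WT spinal cord, with duodenum differences of −3.13, −3.13 and −3.18 and spinal cord differences of 0.33, 0.33 and 0.37. H4c11 was at −3.39 and H4f16, alone on chromosome 6, at −3.30 in the duodenum. H4c9, with signals of 338, 313, 719 and 512, fell by 2.74 in the duodenum and differed by −0.22 in the spinal cord, where its second probe gave 0.72. The other members with 2 probes were H2ac15, H4c12 and H4c14. The second probes of H2ac15 and H4c12 kept the sign of both genotype differences, though that of H2ac15 gave 1.08 in the spinal cord against 0.64, and the second probe of H4c14 was not well above background in WT spinal cord or in the duodenum labelled KO.

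H4c8 (NM_153173) was the H4 gene within 2-fold in the duodenum in the main setting. Its signals were 104, 112, 6.39 and 18.3, so it was brightest in the spinal cord before scaling. The duodenum difference was −0.73 with a technical SD of 0.283. It was −1.35 under normexp, where 9 of 9 H4 genes were at least 2-fold lower, against 14.3% of all genes. WT duodenum differed from WT spinal cord by −0.30, which turned to 0.38 under normexp and 1.58 with replaced backgrounds. On the arrays labelled KO the tissue difference was −1.03, which was 0.015 relative to the median gene under normexp.

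**Figure D2:**
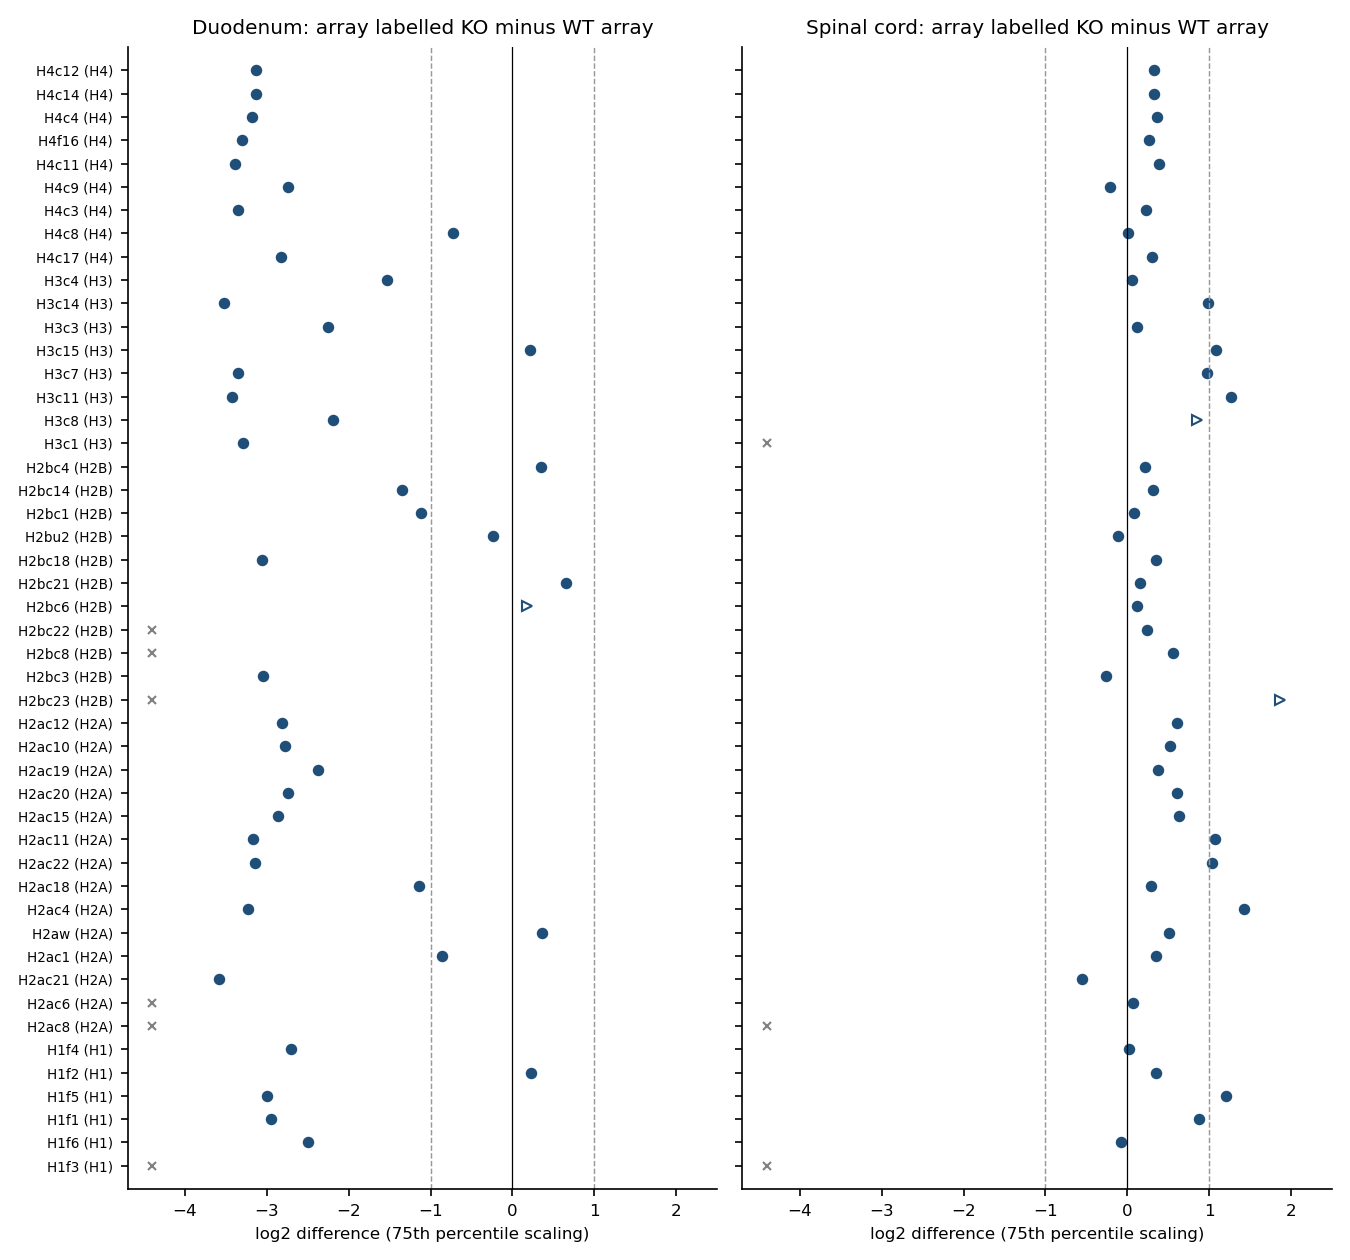
Log2 difference of the normalized value, array labelled KO minus WT array, for each of the 48 members in the duodenum and the spinal cord. Filled circles are well above background on both arrays, open triangles are lower bounds, grey crosses at the left edge mark members without a value, and dashed lines mark 2-fold; 33 members lie at or below −1 in the duodenum and 7 at or above 1 in the spinal cord, but with spiked-in scaling the members' median in the duodenum was 0.27 and the median gene was at 2.78.

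Across members, the order of the arrays in the main scaling was shared more often than not. For 28 of the 39 members well above background on all 4 arrays the normalized value was highest in WT duodenum, followed by the duodenum labelled KO, the spinal cord labelled KO and WT spinal cord. How often all genes had this order was not counted. Of 41 members with a value or bound in both genotype comparisons, 30 were below 0 in the duodenum and above 0 in the spinal cord. The share of all genes with these signs was not counted. For 5 of the 30 members (H1f5, H2ac4, H2ac11, H2ac22 and H3c11) both differences were past 2-fold, though probes of near-identical genes among them may bind the same transcripts. With spiked-in scaling none of these 5 was past 2-fold in the duodenum, and under normexp H1f5 was at 0.16 in the spinal cord, with the median gene at −0.43. The red blood cell genes had the same pair of signs, with medians of −3.39 in duodenum and 1.18 in spinal cord. The same arrays give the tissue and the genotype comparisons, so these orders are not independent of each other.

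**Figure D3:**
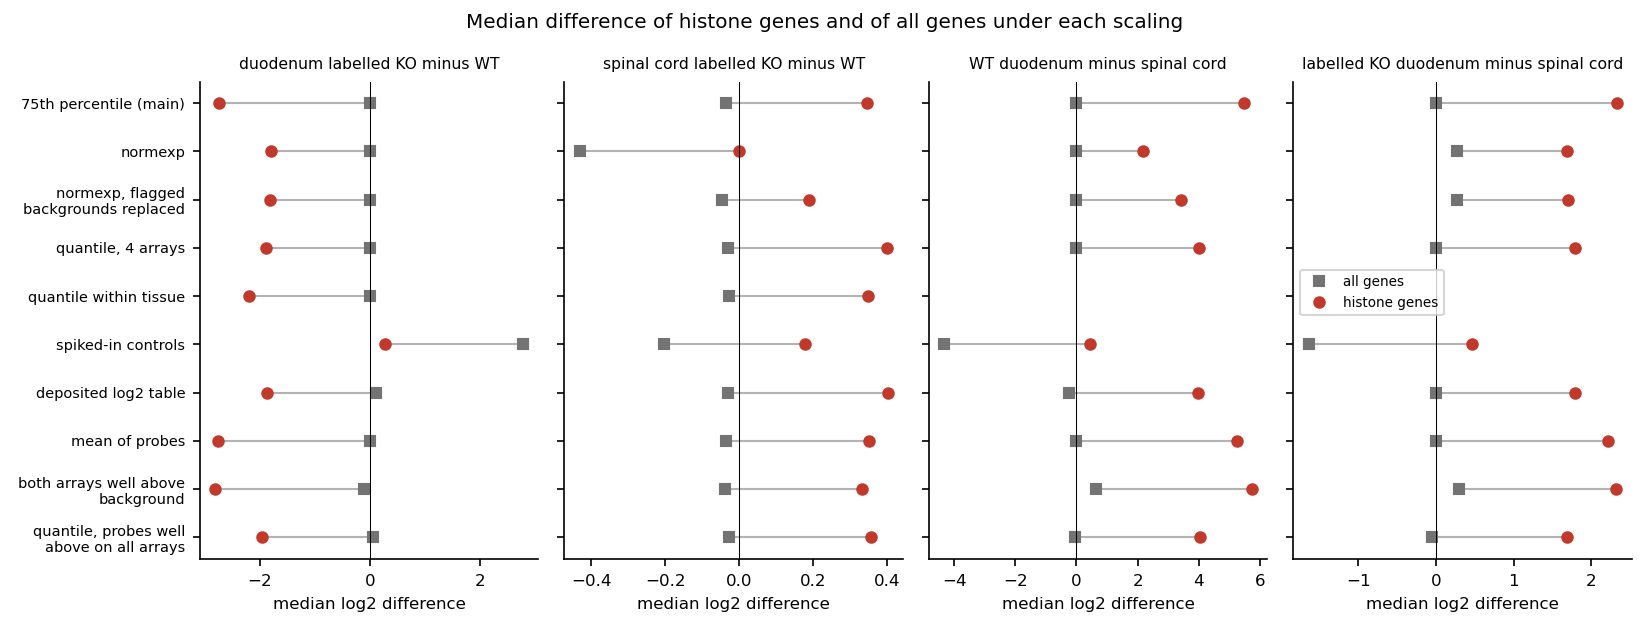
Median log2 difference of the histone genes (red circles) and of all genes (grey squares) in the 4 comparisons under the main scaling and up to 9 alternatives, with a scale of its own for each comparison. Quantile normalization within each tissue was run for the genotype comparisons only. Under scaling on spiked-in controls both medians of the duodenum comparison lie above 0, the genes at 2.78 and the histone genes at 0.27, and the histone genes lie below all genes there in each setting and above them in the other 3 comparisons.

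The genes lie in a few clusters, which their older names follow. Chromosome 13 held 36 of the 48 members with a probe, chromosome 3 held 9, chromosome 11 held 2 and chromosome 6 held 1. The median duodenum difference was −2.76 for chromosome 13 and −2.74 for chromosome 3. Both genes on chromosome 11, H2aw and H2bu2, stayed within 2-fold, at 0.36 and −0.24. Their WT tissue differences, 0.31 and −4.09, were below those of most members.

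Gene length in the annotation set another small group apart, chosen after the values were seen. Most cluster genes span only the coding sequence and short ends, but 5 members with a probe, all H2B genes, have an annotated span over 1000 bases. They were H2bc4 with 8282 bases, H2bc6 with 37455, H2bc21 with 2667, H2bc22 with 14079 and H2bc23 with 3788. A longer span can come from an annotated transcript with an intron or with a later end. Of these 5, 2 (H2bc4 and H2bc21) were well above background in WT duodenum, so the other 3 could not have been found lower on the duodenum array labelled KO. These 2 differed by 0.34 and 0.65, the latter at −0.36 under normexp. Among the members with a shorter span, 33 of 41 were at least 2-fold lower, against 11.9% of all genes, with a median of −2.81.

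Promoter sequences from RefSeq (build GRCm38.p6) were at hand for 62 of the 70 genes and for 43 of the 48 with a probe, as windows of 300 bases from 250 bases before to 50 after the annotated start. Of the letters searched on both strands, CCAAT stood in 53 of the 62 windows (85.5%) and in 37.4% of all 32851 windows in the table. The TATA box letters TATAAA stood in 35 (56.5%) against 13.6%. The octamer ATTTGCAT, known as a binding sequence of POU factors in H2B promoters, stood in 13 (21.0%) against 1.74%, namely in 7 of 18 H2A and 6 of 16 H2B windows. Windows of neighbouring H2A and H2B genes can overlap, so these are not all separate promoters. The same octamer was counted for H2ac1 and H2bc1, for H2ac12 and H2bc12, and for H2ac8 and H2bc8. The H1 box AAACACA stood in 9 (14.5%) against 7.18%, including 5 of the 6 H1 windows. By type, CCAAT was found in all 6 windows for H1, 18 for H2A, 16 for H2B and 10 for H3 but in 3 of 12 for H4. Of the 30 members with a window that were at least 2-fold lower in the duodenum labelled KO, 19 held TATAAA, 25 CCAAT, 7 the octamer and 6 the H1 box. Of the 7 with a difference not past 2-fold, these counts were 2, 6, 2 and 2, and over all 43 members with a probe and a window they were 26, 37, 12 and 9. Such matches describe the letters in these windows only.

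Windows are printed for members of 4 types, H1f4, H2ac12, H3c4 and H4c4, at least 2-fold lower in the duodenum labelled KO, and for H1f2 and H2aw, within 2-fold, so that the H1 and the H2A pair can be set side by side. Capitals mark each match to the letters of the TATA box, the CCAAT box, the octamer or the H1 box on either strand. The H1f4 window is chr13:23622509-23622808 on the minus strand and that of H1f2 is chr13:23738557-23738856 on the plus strand. H2ac12 lies at chr13:22035594-22035893 on the minus strand and H2aw at chr11:58954435-58954734 on the plus strand. The windows of H3c4, chr13:23575513-23575812, and H4c4, chr13:23581318-23581617, are both on the plus strand. Both H1 windows hold the H1 box and a CCAAT, while TATAAA is in that of H1f4 only. Both H2A windows hold the octamer and more than 1 CCAAT, while TATAAA is in that of H2ac12 only. It begins at position −27 from the annotated start in H1f4 but at position 16, after the start, in H2ac12. The search took these letters literally, so tatatata in the H1f2 window and tatataa in that of H2aw were not counted. Absence of TATAAA therefore does not mean that these 2 windows lack a TATA-like sequence.
H1f4: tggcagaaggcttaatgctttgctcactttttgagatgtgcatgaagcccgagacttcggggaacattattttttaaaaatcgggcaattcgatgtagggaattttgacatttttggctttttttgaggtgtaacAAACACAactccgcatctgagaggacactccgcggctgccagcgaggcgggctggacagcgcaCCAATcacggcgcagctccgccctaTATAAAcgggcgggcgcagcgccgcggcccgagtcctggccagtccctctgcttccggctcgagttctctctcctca
H1f2: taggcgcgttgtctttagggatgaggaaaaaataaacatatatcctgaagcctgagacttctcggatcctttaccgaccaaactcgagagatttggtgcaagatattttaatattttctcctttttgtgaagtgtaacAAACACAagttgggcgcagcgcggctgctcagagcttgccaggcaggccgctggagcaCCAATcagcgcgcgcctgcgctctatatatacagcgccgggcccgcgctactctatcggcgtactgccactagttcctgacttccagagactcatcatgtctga
H2ac12: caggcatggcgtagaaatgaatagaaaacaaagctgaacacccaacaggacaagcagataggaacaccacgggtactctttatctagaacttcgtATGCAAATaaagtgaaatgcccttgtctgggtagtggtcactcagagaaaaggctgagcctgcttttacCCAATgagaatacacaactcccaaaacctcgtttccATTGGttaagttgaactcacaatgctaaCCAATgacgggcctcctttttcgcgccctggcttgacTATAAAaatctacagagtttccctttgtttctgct
H2aw: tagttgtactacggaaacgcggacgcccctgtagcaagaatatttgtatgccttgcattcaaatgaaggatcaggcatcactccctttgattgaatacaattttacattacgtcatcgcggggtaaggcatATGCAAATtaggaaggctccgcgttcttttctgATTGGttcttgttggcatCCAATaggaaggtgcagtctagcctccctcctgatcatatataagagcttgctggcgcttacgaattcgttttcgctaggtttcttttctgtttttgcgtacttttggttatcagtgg
H3c4: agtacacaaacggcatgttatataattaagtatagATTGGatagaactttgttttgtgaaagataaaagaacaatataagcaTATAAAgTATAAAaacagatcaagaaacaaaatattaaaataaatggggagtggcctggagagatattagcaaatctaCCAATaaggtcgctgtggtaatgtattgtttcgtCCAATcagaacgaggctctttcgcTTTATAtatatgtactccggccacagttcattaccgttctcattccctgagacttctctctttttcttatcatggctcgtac
H4c4: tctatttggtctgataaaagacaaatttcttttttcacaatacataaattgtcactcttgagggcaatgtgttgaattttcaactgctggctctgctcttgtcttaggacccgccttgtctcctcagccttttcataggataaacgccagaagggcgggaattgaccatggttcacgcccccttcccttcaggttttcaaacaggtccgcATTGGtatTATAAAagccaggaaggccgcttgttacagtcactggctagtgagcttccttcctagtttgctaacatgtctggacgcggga

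Factors that make or process histone mRNA had a median nearer to 0 than the histone genes. Of 19 factors of histone mRNA transcription and 3′ processing, 17 were measured in the duodenum, 3 were at least 2-fold higher on the array labelled KO (7.2% of all genes) and 1 was at least 2-fold lower (11.9% of all genes), with a median of −0.19. Those higher were Srrt, a partner of the cap-binding complex, at 1.55, Cpsf2, a subunit of the cleavage complex, at 1.39, and Ncbp1, the large cap-binding subunit, at 1.34. E2f1, a transcription factor of the G1 to S transition, was at −1.41. Under normexp 0 factors were at least 2-fold higher and 2 lower, against 3.93% and 14.3% of all genes. Slbp, which encodes the stem-loop binding protein, had signals of 247, 254, 18.8 and 66.7 and differed by −0.42 in duodenum and −0.066 in spinal cord. Sympk, the scaffold of the cleavage complex and the brightest of the list, had signals of 3583, 3990.3, 720.2 and 1869. Npat, the coactivator of histone gene transcription, was well above background only in WT spinal cord, and Ccne2 on no array. None of the 18 measured in the spinal cord was past 2-fold.

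Histone chaperones carry new histones to DNA. Of 18 in the list, 1 was at least 2-fold higher on the duodenum array labelled KO, a share near the 7.2% of all genes. There 0 were lower, against 11.9% of all genes, and 0 were past 2-fold in the spinal cord. The chaperone gene that was higher was Nap1l4, a chaperone of H2A and H2B, at 1.36. Rbbp4, a subunit of chromatin assembly factor 1, had signals of 8804, 9046, 543 and 2421 and differed by −0.090 and −0.063.

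Most replication-independent histone variants are made throughout the cell cycle from mRNAs with a poly(A) tail, but not each gene of the list need follow this. Of the 11 listed, 3 were at least 2-fold lower on the duodenum array labelled KO, against 11.9% of all genes. There 1 was at least 2-fold higher, a share near the 7.2% of all genes, and the median was −0.22. H2aj, an H2A variant, had signals of 12229, 16872, 42555 and 40498 and differed by −2.32, close to the cluster H2A genes. H1f10, a linker variant, was at −1.85 and Macroh2a2, a macroH2A gene, at −1.16, and H1f0, the linker variant of differentiated cells, was at 1.09. Under normexp 0 variants were at least 2-fold higher and 2 lower, against 3.93% and 14.3% of all genes. H2az1, the brightest of the list in the spinal cord, gave 28263, 26236, 3761 and 13005 and differed by −0.46 in duodenum and −0.21 in spinal cord. The genes for H3.3, H3f3a and H3f3b, were at 0.13 and 0.27 in the duodenum. Spinal cord differences of all 11 were within 2-fold.

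The list of testis-type genes is part of the members. H1f6 and H2bc1, 2 of the 3, were at least 2-fold lower on the duodenum array labelled KO, against 11.9% of all genes. H2bc1 was at −0.55 under normexp, within 2-fold. H2ac1, with signals of 48.5, 66.1, 15.0 and 39.0, was at −0.86, which was −1.22 under normexp. In the spinal cord 0 of the 3 were past 2-fold, with H2bc1, the brightest, at 0.084.

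Genes of DNA replication, which are used in the same phase of the cycle, were compared beside the histone genes. Of 25, 3 were at least 2-fold lower on the duodenum array labelled KO (a share near that of all genes) and 0 higher, with a median of −0.16. The 3 were the helicase subunit gene Mcm5 at −1.19, the thymidine kinase gene Tk1 at −1.09 and Uhrf1, which recruits the maintenance DNA methyltransferase, at −1.24. The sliding clamp gene Pcna had signals of 3941, 4081, 486 and 1678 and differed by −0.46 in duodenum and −0.051 in spinal cord. Within the spinal cord 0 of 25 were past 2-fold. Between WT tissues 12 of 24 were at least 2-fold higher in the duodenum, against 30.2% of all genes, with a median of 0.95. That count belongs to the main scaling, since on spiked-in controls 3.43% of all genes were higher there and 92.3% lower.

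Mitosis genes had a median of 0.044 in the duodenum. Of 14 measured there, 2 were at least 2-fold higher on the array labelled KO (7.2% of all genes) and 0 lower (11.9% of all genes), and under normexp 1 was higher. With spiked-in scaling all 14 were higher, as were 96.2% of all genes. The 2 in the main scaling were the topoisomerase gene Top2a at 1.07 and, as a bound, the spindle gene Tpx2 at a log2 difference of at least 1.01. Within the spinal cord 5 of 14 were at least 2-fold higher, against 2.28% of all genes, with a median of 0.84. Under normexp that median was −0.0054 relative to the median gene, and 0 were higher and 5 lower, against 0.341% and 38.3% of all genes. With flagged backgrounds replaced 2 were higher and 0 lower, against 0.686% and 0.0753% of all genes. Higher in the main scaling were Ube2c at 1.502, the proliferation marker gene Mki67 at 1.47, Ccnb1 for cyclin B1 at 1.11, Top2a at 1.08 and Bub1, as a bound, at 1.39. Birc5, the survivin gene and the brightest of the list on 3 of the arrays, had signals of 680.4, 900.1, 133 and 1144. Aurkb and Cenpf were not well above background on any array. Between tissues, like the histone genes, 11 of 13 in WT and 12 of 14 under the KO label were at least 2-fold higher in the duodenum, against 30.2% and 30.3% of all genes, with medians of 2.44 and 2.07. With spiked-in scaling 0 of 13 were higher and 12 lower in WT, against 3.43% and 92.3% of all genes. Under the KO label 1 of 14 was higher and 1 lower with that scaling, against 9.56% and 64.8%. Normexp gave 7 of 13 higher in WT, against 18.3% of all genes, and 10 once flagged backgrounds were replaced, against 31.0%.

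Markers of other cell types moved in the same comparisons as the histone genes. In the duodenum, 6 of 6 red blood cell genes were at least 2-fold lower on the array labelled KO, against 11.9% of all genes, with a median of −3.39. Their signals summed to 206036, 340803, 104186 and 28532, and the globin gene Hba-a2 had the brightest probe of the list on each array. Hba-a2 itself differed by −4.19. These values belong to the main scaling, since on spiked-in controls 96.2% of all genes were at least 2-fold higher on the duodenum array labelled KO. Of the 11 pancreatic acinar genes, 8 were at least 2-fold lower there (11.9% of all genes), with a median of −1.75, but 0 of 11 were lower under quantile normalization of the 4 arrays. Among the 10 markers of the duodenal epithelium 2 were lower and 0 higher, against 11.9% and 7.2% of all genes, with a median of −0.28 that was 0.26 under the same normalization. Their part in the histone gene result was not tested.

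In the spinal cord, 4 of 6 red blood cell genes were at least 2-fold higher on the array labelled KO, against 2.28% of all genes, and Hba-a2 differed by 0.36. Of 9 granulocyte genes of the bone marrow, 7 were at least 2-fold higher (2.28% of all genes), with summed signals of 51746, 107589, 96.1 and 289. S100a9 had their brightest probe in the spinal cord, and Mpo, Prtn3, Ctsg, Ngp and S100a8 were not well above background in the duodenum. Of 10 lymphocyte genes 9 had a probe, 4 of 8 measured were at least 2-fold higher (2.28% of all genes), and the sums were 532, 1028, 705 and 2828. Cd3g was not well above background in the spinal cord, and Cd3e had the brightest probe of the list on 3 of the arrays. The median of this list was −0.92 relative to the median gene under normexp and 1.00 in the main scaling.

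Muscle genes differed more widely there. Of 9 skeletal muscle genes 8 were at least 2-fold higher on the spinal cord array labelled KO, against 2.28% of all genes, with a median of 4.02 and sums of 25478, 89837, 108 and 438. Pvalb, also a gene of neurons, had their brightest probe in the spinal cord, and Mylpf was not well above background in WT spinal cord. Prx, a gene of Schwann cells, had signals of 188, 7564, 6.27 and 45.5 and differed by 5.23 between the spinal cord arrays. Gfap and Mobp differed by −0.26 and 0.31 in the same comparison. The part of these cell types in the spinal cord result was not tested.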

How the data were processed

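RNA of spinal cord and duodenum was hybridized to 1-colour arrays, 1 array for each genotype and tissue, and all 4 lay on 1 slide. The authors deposited scanner output of Agilent Feature Extraction 11.5.1.1, whose processed signals are intensity values with the background subtracted and trends across the array removed. They also deposited a table of log2 values with column medians of 5.12, 5.12, 5.11 and 5.12, whose quantiles were nearly the same and whose centring and method are not stated. Members' medians from that table were close to those after quantile normalization of the 4 arrays. They were −1.86 and −1.89 in the duodenum and 3.99 and 4.01 between WT tissues, so these alternatives overlap. Control spots and outlier spots were dropped, and spots of a probe were averaged. The log2 of the processed signal minus the 75th percentile of the array was the main value, and a gene with several probes was given by the brightest on average. Genes were named by accession through the RefSeq table of build GRCm38.p6, which matched 25868 of 26391 probes with an NM accession, and other probes kept their identifier. A gene was measured where it was well above background on at least 1 of both arrays. The technical SD came from 399 probes spotted 10 times, as the median over the 50 nearest in brightness.

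No test was made. The alternatives were normexp with an offset of 50, on the median signal because the files hold no mean signal, the same with flagged local backgrounds replaced, quantile normalization over all 4 arrays and over each tissue, scaling on 8 spiked-in control probes, the mean of all probes of a gene, the deposited table, both arrays well above background, no filter and 1.5-fold. The steps were tested on simulated data. Python 3.11.15 with numpy 2.4.6 and pandas 2.3.3 and R 4.3.3 with limma 3.58.1 were used.

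Named members were the 3 brightest of each histone type, the 5 highest and the 5 lowest differences of each comparison, members past 2-fold as a bound in a genotype comparison, and members on no array well above background. H1f1, H2ac1, H2ac6, H2ac8, H2ac15, H2bc18, H2bc22, H3c1 and H4f16 were named besides, after their values were seen. The gene lists were factors of histone mRNA transcription and processing, chaperones, replication-independent variants, testis-type members, DNA replication, mitosis, and markers of duodenal epithelium, red blood cells, granulocytes, lymphocytes, skeletal muscle and pancreatic acinar cells. Of spinal cord and Schwann cell markers only single genes are given, and some results are not reported here. Members and lists were chosen with earlier results of these data known.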

Additional observations from a re-analysis of the deposited data

Results flagged for a closer look

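The genotype difference of the histone genes had opposite signs in the 2 tissues. Relative to the median gene, the members' median in the duodenum minus that in the spinal cord was −3.12 on the log2 scale. For 5 of 41 members both differences were past 2-fold, with the duodenum lower and the spinal cord higher on the array labelled KO in the main scaling. The share of all genes past 2-fold in these opposite directions was not counted. H1f5 was at −2.99 in duodenum and 1.20 in spinal cord. H2ac11 was at −3.17 and 1.07, H2ac22 at −3.15 and 1.04. The values were −3.22 and 1.42 for H2ac4 and −3.43 and 1.27 for H3c11, and relative to the median gene the latter's spinal cord value was −1.78 under normexp and with flagged local backgrounds replaced its difference was 0.077, with the median gene at −0.048. With spiked-in scaling the duodenum values of H1f5, H2ac11, H2ac22, H2ac4 and H3c11 were 0.013, −0.17, −0.14, −0.22 and −0.42, all within 2-fold, with the median gene at 2.78. Under normexp the spinal cord value of H1f5 was 0.16, with the median gene at −0.43, and it was 1.02 with replaced backgrounds. The red blood cell genes also had a median below 0 in the duodenum and above 0 in the spinal cord, at −3.39 and 1.18. With 1 array a group, the difference between tissues was not tested.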

How the results depend on the processing

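Medians below are the members' medians relative to the median gene, on the log2 scale. In the main setting they were −2.74 in the duodenum (labelled KO minus WT), 0.38 in the spinal cord, 5.47 between the WT tissues and 2.32 between the tissues labelled KO. The sign of these 4 medians held under each alternative run, but their size moved. Normexp gave −1.81 in the duodenum, 2.17 between WT tissues and 1.42 under the KO label. With flagged backgrounds replaced it gave −1.81, 0.24 in the spinal cord, 3.42 and 1.43. Quantile normalization of the 4 arrays gave −1.89 in the duodenum, 4.01 between WT tissues and 1.79 under the KO label, and within the duodenum alone −2.20. Spiked-in scaling gave −2.52, 4.76 and 2.10, and the deposited table −1.97, 4.22 and 1.79. Between tissues, the mean of a gene's probes gave 5.24 and 2.22, and genes well above background on both arrays gave 5.12 and 2.01. Chosen after seeing the data, quantile normalization of probes well above background on all 4 arrays gave −2.02, 4.08 and 1.75, and the median of the medians of the 5 types gave 5.96 between WT tissues. A grouping by annotated span was also chosen after seeing the data.

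Counts past 2-fold moved with the scaling and with the background correction. Spiked-in scaling gave 17 higher and 0 lower in the duodenum in place of 0 and 33, 4 higher in the spinal cord in place of 7, 15 higher and 18 lower between WT tissues in place of 36 and 2, and 8 and 11 under the KO label in place of 36 and 3. Of all genes, 96.2% were then higher in the duodenum, 1.75% higher in the spinal cord, 92.3% lower between WT tissues and 64.8% lower under the KO label. The deposited table gave 1 higher and 30 lower in the duodenum, against 15.3% and 8.75% of all genes. Normexp gave 4 higher and 15 lower for the spinal cord, against 0.341% and 38.3% of all genes. Replacing the flagged backgrounds gave 4 and 0 there, against 0.686% and 0.0753%. Between WT tissues normexp gave 29 higher and 1 lower, against 18.3% and 11.4% of all genes. Replacing those backgrounds gave 38 and 1, against 31.0% and 13.2%. With both arrays well above background 1 was lower between WT tissues, against 21.7% of all genes. At 1.5-fold, 1 was higher and 35 lower in duodenum, against 17.0% and 22.6% of all genes. In spinal cord 14 were higher and 0 lower at 1.5-fold, against 5.23% and 3.20%. Apart from that threshold, the filter and the flagged backgrounds, the cause was not tested.

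Relative to the median gene, the spinal cord differences of H3c11, H3c14 and H3c7 reversed to −1.78, −0.074 and −1.70 under normexp, and with flagged backgrounds replaced the differences were 0.077, 0.68 and 0.078, with the median gene at −0.048. That of H4c8 between the tissues labelled KO reversed to 0.015 with either form, and the cause was not tested. Here, reversed means a value that, relative to the median gene, was past 2-fold in the main setting and changed sign. By this measure H3c14 and H3c7 were at 1.03 and 1.01, and H3c15 went from 1.12 to 0.18. Of 853 values of members named by rule, 5 reversed, 512 moved past their technical SD, among them values within 2-fold that changed sign, and 336 did neither. Pairs of animals could not be formed with 1 array for each genotype and tissue, and no slide block was run because all arrays shared 1 slide. Signal over background limits the WT duodenum array most, where 51.6% of probes and 41 of 48 members were well above background.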
